A study of Mus musculus with 4 samples.

Results

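The genes described are the 45S precursor of ribosomal RNA (rRNA), Rn45s, and 9 protein-coding genes of RNA polymerase I (Pol I) transcription and early rRNA processing, namely Polr1a, Polr1b, Polr1c, Polr1d, Ubtf, Rrn3, Ncl, Fbl and Npm1. They were chosen by name, as the rows of the deposited table that carry one of these gene symbols. The rule uses no measured value, but earlier results of these data were known when the list was made. They make 10 of the 24984 genes of the table, and all 10 were measured at a mean of at least 1 CPM (fragments of a gene scaled to a common library total), a level reached by 11625 genes.

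The data are TTchem-seq, which tags new RNA with 4-thiouridine (4sU) for a brief time and sequences the tagged fraction, so that fragments over introns and exons report recent synthesis rather than the steady-state level. The cells were double positive (DP) thymocytes, the stage of T cell development at which CD4 and CD8 are both on the surface, and all 4 libraries came from cells kept in culture for 0.5 h ahead of the 4sU. WT mice had floxed Tox4 alleles and no Cre (genotype Tox4;F/F), and conditional knockout (cKO) mice had the same floxed alleles with Lck-Cre (Tox4;F/F;Lck+), with 2 libraries from each genotype. The comparison asks how synthesis of these RNAs differed when Tox4, a regulator of RNA polymerase II (Pol II), was deleted. Per the study's methods the mice were young adult littermates matched by sex, the floxed part was exons 4 to 6, Lck-Cre is driven by the proximal Lck promoter of T lineage cells, and DP thymocytes were isolated with CD4 beads, a step given there for other assays. How they were isolated for TTchem-seq is not given in the sources used here, and CD4 single positive thymocytes carry CD4 too. The control carried no Cre, so an effect of Cre itself cannot be told apart from the deletion. The labels do not say whether libraries of a genotype came from separate mice, so p-values measure only the spread between these libraries.

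Pol I transcribes 1 kind of gene, the tandem rDNA repeats, into the 45S precursor, from which 18S, 5.8S and 28S rRNA are cut. UBTF keeps the repeats open and Rrn3 links Pol I to the factors at the promoter, while nucleolin, fibrillarin and nucleophosmin act on the new transcript in the nucleolus. All of the protein-coding genes named here are themselves transcribed by Pol II, and rRNA synthesis is known to be high in dividing thymocytes and low in resting ones.

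The libraries held 38429786 to 48690591 fragments in genes. All 10 DP thymocyte markers were at a mean of at least 1 CPM, and their summed level was 5340 to 5918 CPM. Markers of erythroid and of thymic epithelial cells had 0 genes at this level, while 4 of 5 double negative, 3 of 6 B cell, 3 of 6 myeloid and all 6 mature single positive markers reached it, with summed levels of 61.3 to 70.5, 12.2 to 14.2, 18.2 to 21.4 and 440 to 507 CPM. WT replicate 1 stood apart in Xist, at 172 CPM against 0 to 2.36 CPM elsewhere, although the methods state sex matching and Xist is the RNA that coats the inactive X chromosome of female cells. It was also the lowest library for all 20 proliferating cell markers. Tox4 fell in cKO (log2 fold change -0.31, SE 0.0998, n = 2 and 2, DESeq2 adjusted p = 0.0453), from 74.0 and 70.3 CPM in WT to 59.3 and 57.2 CPM in cKO. The count covers the whole gene, and the floxed exons were not counted on their own. The call was lost with edgeR (adjusted p = 0.122), limma voom (0.126), and in DESeq2 with total count factors (0.0511), with independent filtering off (0.0821) and with the replicate block (0.361). Leaving out any 1 library moved this adjusted p to between 0.196 and 0.792, with a log2 fold change of -0.34 to -0.28. Each such fit leaves 1 genotype with a single library, assumed to vary like the other genotype, so a lost call there is not a sign of a smaller difference.

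The Rn45s row covers 5833 bp at chr17:39842997-39848829 (GRCm38, plus strand), a single copy in the assembly of a sequence that the genome holds in many near-identical repeats. By the RefSeq annotation, an 18S copy, Rn18s-rs5, lies inside it at chr17:39846354-39848202. The first 3357 bp of the row (57.6%, GC content 69.0%) come before the 18S copy, the 18S copy takes 1849 bp (31.7%, GC content 55.4%), and 627 bp (10.7%, GC content 71.3%) follow it. The row ends before the 28S part, and it counts spacer of the precursor together with 18S, so precursor and mature 18S cannot be separated in its value. The first 100 bases of the row and 100 bases across the start of the 18S copy, both from the GRCm38.p6 RefSeq assembly, show what was counted. Capitals mark the 18S copy.
Start of the Rn45s row, chr17:39842997-39843096, plus strand: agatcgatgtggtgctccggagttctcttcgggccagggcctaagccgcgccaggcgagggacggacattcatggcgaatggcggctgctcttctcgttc
Start of the 18S copy, chr17:39846304-39846403, plus strand: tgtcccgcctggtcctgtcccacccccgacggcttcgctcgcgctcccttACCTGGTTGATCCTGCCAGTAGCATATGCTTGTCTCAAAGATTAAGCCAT

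Rn45s was the most abundant RNA of the table and did not differ between the genotypes beyond its replicate spread. Its level was 27121 and 43049 CPM in WT and 24415 and 40460 CPM in cKO. The second gene by level, Satb1, named here for that rank, had a mean of 6109 CPM, and the mean of Rn45s was 5.53 times that. As a share of all fragments Rn45s took 2.71% (95% Wilson interval 2.71 to 2.72) and 4.30% (4.30 to 4.31) in WT, and 2.44% (2.44 to 2.45) and 4.05% (4.04 to 4.05) in cKO. These intervals cover counting error only, since the reads had no molecular identifiers, and they are far narrower than the gaps between libraries. The mean share was 3.51% ± 1.13 (SD, n = 2) in WT and 3.24% ± 1.13 (SD, n = 2) in cKO, a difference of -0.26 percentage points. In bulk libraries such as these, fewer cells of a type and less RNA per cell cannot be told apart.

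The libraries of each genotype were further apart than the genotypes were. The WT libraries differed by 1.59 times and the cKO libraries by 1.66 times in this share, and in both genotypes replicate 1 was the lower library. The replicate numbers do not mark a shared animal or day in the labels. DESeq2 gave Rn45s a log2 fold change of -0.12 with an SE of 0.41 (n = 2 and 2, adjusted p = 0.953), so the 95% interval ran from a 0.532-fold to a 1.602-fold level in cKO. The direction depended on single libraries: leaving out a WT library gave a log2 fold change of -0.42 (WT replicate 1) or 0.26 (WT replicate 2), and leaving out a cKO library gave 0.21 (cKO replicate 1) or -0.53 (cKO replicate 2). The 95% interval thus covered both a lower and a higher level of the Rn45s row in cKO, and it is not a limit of detection.

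The sources differ on how rRNA sequence was handled in these libraries. The study's methods describe removal of rRNA after the pull-down of labelled RNA, which takes out rRNA sequence to a degree that can vary from library to library, while the protocol in the labels describes capture of polyadenylated RNA. The part of either step in the gap between libraries was not tested. The row held 1156083, 2096101, 938268 and 1608709 fragments in WT replicates 1 and 2 and cKO replicates 1 and 2. Its SE of 0.41 compared with a median of 0.0715 over the 103 genes with a mean of at least 1000 CPM, of which the highest other value was 0.0980.

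**Figure D1:**
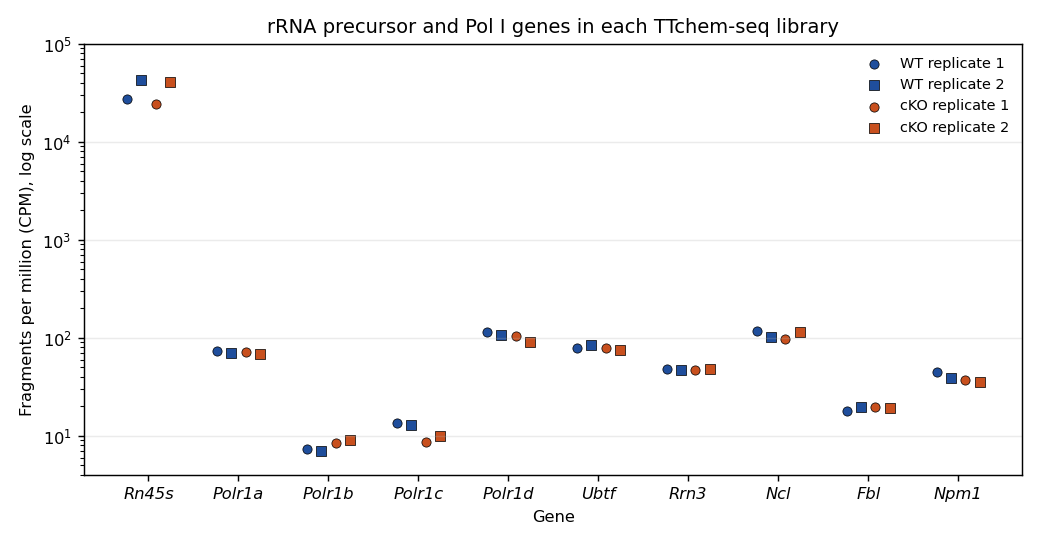
Level of each of the 10 genes in each library, in CPM on a log axis. Blue symbols are WT and orange symbols cKO, circles are replicate 1 and squares replicate 2. Rn45s lies at 24415 to 43049 CPM with its replicates apart and its genotypes interleaved, and the 9 protein-coding genes lie between 6.92 and 118 CPM.

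Few other genes shared the library pattern of Rn45s. Between libraries of a genotype its log2 CPM differed by 0.67 in WT and by 0.73 in cKO, and 4 of the other 8152 genes with a mean of at least 10 CPM differed at least as much, in the same direction, in both genotypes. Those 4 were Hist1h4d, Hist1h4f, Hist1h4j and Hist2h4, all histone H4 genes, and they were singled out after their values were seen. By root mean square difference of log2 CPM centred on each gene's mean over the 4 libraries, the nearest of the 8152 genes was Hist2h4, at 0.0352. Hist1h4b (0.0997), Hist1h2bm (0.104), Hist1h3e (0.105) and Hist1h3h (0.111) followed. All 5 are replication-dependent histone genes, whose transcripts carry no poly(A) tail. They belong to families of near-identical copies, so the split of fragments among copies is uncertain. Hist2h4 was measured at 75.2 and 123 CPM in WT and at 65.1 and 112 CPM in cKO. The likeness rests on 4 libraries and is a description. The 8 other members at this level were at 0.335 (Ubtf) to 0.433 (Polr1d), which placed them between rank 1762 and rank 7152 in this order.

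**Figure D2:**
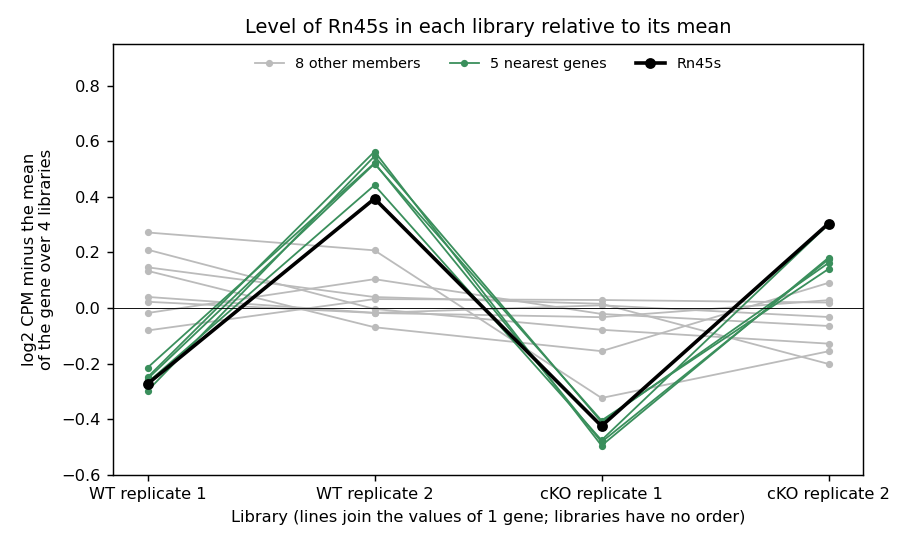
log2 CPM of a gene minus its mean over the 4 libraries, for Rn45s (black), the 5 genes nearest to it (green) and the 8 other members with a mean of at least 10 CPM (grey). Rn45s is at -0.27 and 0.39 in the WT libraries and at -0.42 and 0.30 in the cKO libraries. The green genes were picked as the nearest to Rn45s in these values, so their closeness is given by that choice.

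None of the 10 genes was called changed in cKO, that is, 0 of 10 met the 3 criteria of an adjusted p under 0.05 (DESeq2, Benjamini-Hochberg over all genes), a mean level of 1 CPM or more and a change of 1.2-fold or more. Of all 10624 genes tested, 4.06% were called, 2.34% as higher and 1.71% as lower in cKO, so that 0 of 10 is near the background. edgeR's quasi-likelihood test and limma voom called 0 members too. By each of the 3 tools 1 member, Polr1c, had an unadjusted p under 0.05, against 14.3% of all genes tested by DESeq2. The median log2 fold change of the members was -0.08 (range -0.50 to 0.29), beside 0.00 for all genes tested, and their median SE was 0.12, beside 0.14. Without cKO replicate 1 the members' median was -0.0032, and without WT replicate 2 it was -0.03. In 4 members (Polr1c, Polr1d, Ubtf and Npm1) both cKO libraries lay below both WT libraries, which was so for 24.3% of all genes tested. In 1 member (Polr1b) both lay above, which was so for 25.3%, and in the other 5 the genotypes overlapped.

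**Figure D3:**
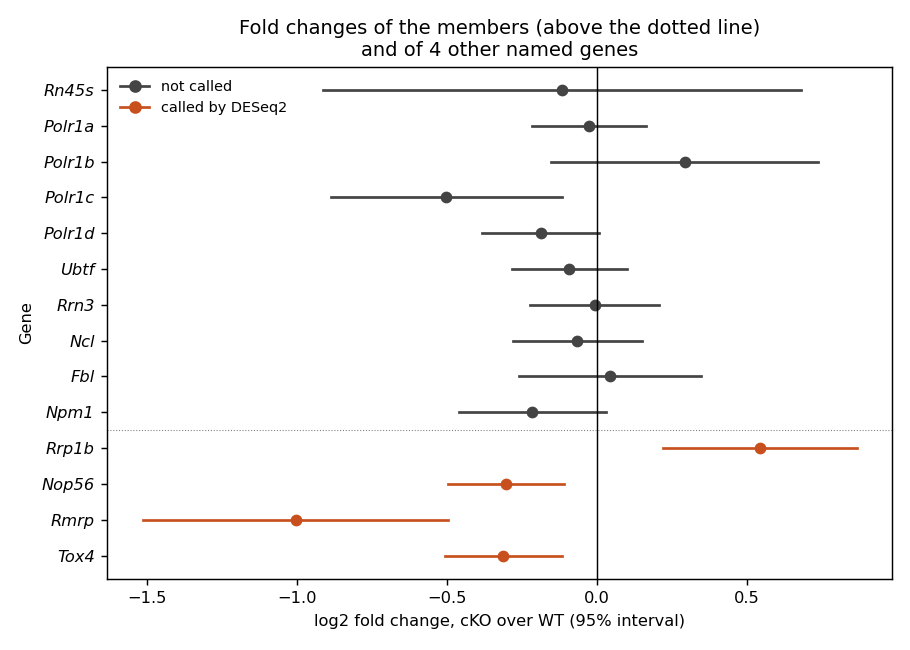
log2 fold change of cKO over WT from DESeq2 (points) with its 95% interval (bars), for the 10 members above the dotted line and for Rrp1b, Nop56, Rmrp and Tox4 below it. Orange marks called genes. The interval of Rn45s is the widest among the members, from -0.91 to 0.68, and that of Polr1c alone among the members leaves out 0.

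The Pol I subunits among the members covered the range of the fold changes. Polr1a encodes the largest, catalytic subunit of Pol I (chr6:71909053-71979360, plus strand). It was measured at 72.8 and 69.9 CPM in WT and at 71.3 and 69.2 CPM in cKO. The genotypes overlapped, and the log2 fold change was -0.03 (SE 0.0967, DESeq2 adjusted p = 0.958), with a 95% interval of the fold change of 0.861 to 1.12. Polr1b encodes the other large subunit, which forms the active centre together with the product of Polr1a (chr2:129100996-129126595, plus strand). Its level was 7.30 and 6.92 CPM in WT and 8.35 and 9.10 CPM in cKO. Both cKO libraries were above both WT libraries, by a log2 fold change of 0.29 that did not pass the test (SE 0.227, DESeq2 adjusted p = 0.634, interval of the fold change 0.901 to 1.67). Polr1b had the fewest fragments of the members, 311 to 362 a library.

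Polr1c and Polr1d encode the pair of subunits that Pol I shares with RNA polymerase III (Pol III) and on which both enzymes assemble. Polr1c, at chr17:46243920-46248045 on the minus strand, had the largest difference of the members. Its level was 13.5 and 12.9 CPM in WT and 8.74 and 9.88 CPM in cKO, from 336 to 626 fragments a library. Both cKO libraries were lower than both WT libraries, and the gap between the genotypes was wider than that between libraries of a genotype. The log2 fold change was -0.50 (SE 0.197, n = 2 and 2), with an interval of the fold change of 0.541 to 0.923. It did not pass the adjustment over all genes by DESeq2 (adjusted p = 0.149), edgeR (0.175) or limma voom (0.178). With 1 library left out the value stayed between -0.60 and -0.41.

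Polr1d, at chr5:147077346-147111361 on the plus strand, was measured at 114 and 106 CPM in WT and at 104 and 89.8 CPM in cKO. The cKO libraries were again the lower ones, but cKO replicate 1 lay within 2 CPM of WT replicate 2, and the log2 fold change of -0.19 did not pass the test (SE 0.10, DESeq2 adjusted p = 0.394, interval of the fold change 0.767 to 1.01). Without cKO replicate 2 it was -0.09, and without cKO replicate 1 it was -0.29.

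The annotated start of Polr1c lies next to that of Yipf3, which is transcribed the other way from position 46248080 of chromosome 17, with 34 bases between both starts. Yipf3, a Golgi membrane protein gene named here after its values were seen, was measured at 64.6 and 61.8 CPM in WT and at 56.2 and 55.1 CPM in cKO, which gave a log2 fold change of -0.19 with an SE of 0.102 (DESeq2 adjusted p = 0.409). The window of RefSeq (GRCm38.p6) that runs from before to just after the Polr1c start is shown because both genes begin in it. Capitals mark the bases between the starts.
Polr1c promoter window, chr17:46247996-46248295, minus strand: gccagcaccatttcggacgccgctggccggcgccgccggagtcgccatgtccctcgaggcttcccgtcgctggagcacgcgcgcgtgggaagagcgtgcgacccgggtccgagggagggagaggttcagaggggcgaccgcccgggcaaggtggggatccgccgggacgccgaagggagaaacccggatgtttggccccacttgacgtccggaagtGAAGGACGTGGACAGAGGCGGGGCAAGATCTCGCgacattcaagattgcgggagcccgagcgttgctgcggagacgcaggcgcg

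The genes of Pol I initiation differed little between libraries. Ubtf encodes UBTF, the HMG box protein that binds along active rDNA (chr11:102304560-102320862, minus strand). It was at 78.5 and 85.5 CPM in WT and at 78.3 and 76.0 CPM in cKO. WT replicate 1 and cKO replicate 1 were nearly level, and the log2 fold change was -0.09 (SE 0.0979, DESeq2 adjusted p = 0.781, interval of the fold change 0.822 to 1.07). Without WT replicate 2 it was -0.02, and without WT replicate 1 it was -0.16. Rrn3 encodes the initiation factor also known as TIF-IA (chr16:13780699-13814841, plus strand). It was at 48.4 and 47.1 CPM in WT and at 46.6 and 48.6 CPM in cKO. All 4 libraries were within 1.04 times of each other, and the log2 fold change was -0.01 (SE 0.110, DESeq2 adjusted p = 0.991, interval of the fold change 0.857 to 1.16).

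Ncl, Fbl and Npm1 encode the abundant nucleolar proteins that fold, modify and escort the new rRNA. Ncl encodes nucleolin (chr1:86344719-86359455, minus strand) and was at 118 and 103 CPM in WT and at 96.6 and 115 CPM in cKO. The genotypes overlapped, and the log2 fold change was -0.07 (SE 0.110, DESeq2 adjusted p = 0.876, interval of the fold change 0.824 to 1.11). Fbl encodes fibrillarin, the methyltransferase of box C/D snoRNPs (chr7:28169748-28179269, plus strand). It was at 18.1 and 19.6 CPM in WT and at 19.6 and 19.4 CPM in cKO, and the genotypes overlapped here too. Its log2 fold change was 0.04 (SE 0.155, DESeq2 adjusted p = 0.952, interval of the fold change 0.836 to 1.27).

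Npm1 encodes nucleophosmin, a nucleolar chaperone of ribosome assembly (chr11:33152498-33163206, minus strand). It was at 45.1 and 38.8 CPM in WT and at 36.8 and 35.6 CPM in cKO. Both cKO libraries were lower, WT replicate 1 was the highest library, and the log2 fold change of -0.21 did not pass the test (SE 0.125, DESeq2 adjusted p = 0.463, interval of the fold change 0.727 to 1.02). Without WT replicate 1 the value was -0.11, and without WT replicate 2 it was -0.31. Npm1 has processed pseudogenes of near-identical sequence, so its exonic fragments are less certain than its intronic ones.

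Ncl also hosts small RNAs of the rRNA modification machinery in its introns, and 3 such rows, Snord82, Snora75 and Gm24148, lie inside it on the same strand. They held few fragments: 15.0, 14.5, 14.5 and 5 for Snord82 in WT replicates 1 and 2 and cKO replicates 1 and 2, and 35.0 to 49.5 for Snora75. Gm24148 was at 112 and 95 fragments in WT and at 51.5 and 60.0 fragments in cKO. DESeq2 gave an adjusted p for none of the 3 rows, and their unadjusted p was above 0.05. Snord82 is a box C/D snoRNA, the class for which fibrillarin is the enzyme, and its sequence is shown from the GRCm38 assembly with the C box and the D box in capitals.
Snord82, chr1:86356260-86356327, minus strand: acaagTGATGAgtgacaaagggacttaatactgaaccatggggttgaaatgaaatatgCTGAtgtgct

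**Figure D4:**
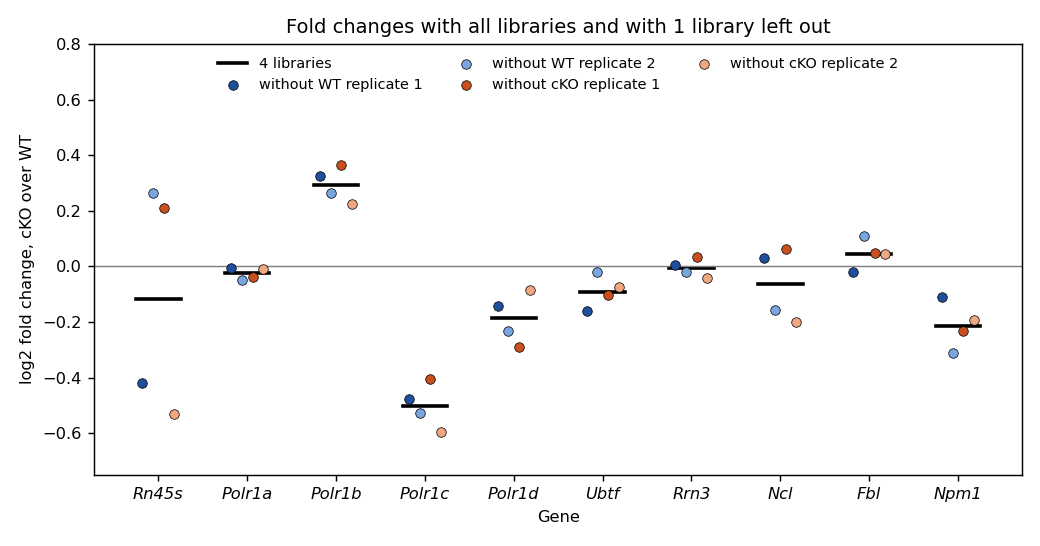
log2 fold change of each member from all 4 libraries (black bars) and with 1 library left out (dots, coloured by the library left out). Rn45s spreads from -0.53 to 0.26, whereas Polr1c stays between -0.60 and -0.41 and Polr1a between -0.05 and -0.01.

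Per length, the members differed widely in level. With CPM divided by the length of the counted interval in kb, introns included, the mean over the 4 libraries was 5788 CPM per kb for Rn45s and 7.32 for Ncl, the highest protein-coding member. Ubtf (4.88), Npm1 (3.65), Polr1d (3.05), Polr1c (2.72), Fbl (2.01), Rrn3 (1.40), Polr1a (1.01) and Polr1b (0.309) followed, all in CPM per kb. The median of the 11625 genes with a mean of at least 1 CPM was 1.46 CPM per kb, so that Rrn3, Polr1a and Polr1b were below it. Over the 4 libraries the ranges of neighbours in this order overlapped for Npm1 and Polr1d and for Polr1d and Polr1c, and were separate for the other 7 pairs of neighbours. The subunits Polr1a and Polr1b are present in Pol I in equal number, and the level per kb of Polr1a was above that of Polr1b in every library, at 0.984 to 1.04 against 0.270 to 0.356 CPM per kb.

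The wider machinery was described by lists of Pol I subunits, Pol I initiation and termination factors, rRNA modification and processing factors, Pol III subunits and factors, and rows of structural RNAs, with 116 genes in all. Of these 105 had a row, 99 were tested and 3 were called, 1 as higher and 2 as lower, which is 3.03% beside the 4.06% of all genes tested. None of the 13 Pol I subunits was called (median log2 fold change -0.10, 2 with an unadjusted p under 0.05), nor any of the 8 tested initiation and termination factors (-0.01, 0) or the 22 Pol III genes (-0.04, 4). Among 52 modification and processing factors 1 rose and 1 fell (median -0.01), and of 4 structural RNA rows 1 fell (median -0.72). edgeR and limma voom called 0 of these genes. With 1 library left out, the median of the Pol I subunits ran from -0.14 (WT replicate 1 left out) to -0.0091 (cKO replicate 2). That of the structural RNA rows ran from -1.04 (cKO replicate 2 left out) to -0.43 (cKO replicate 1).

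Rrp1b, a nucleolar factor of large subunit assembly, rose from 12.9 and 14.2 CPM in WT to 19.6 and 19.9 CPM in cKO (log2 fold change 0.54, SE 0.165, DESeq2 adjusted p = 0.0279). Nop56, a core protein of the box C/D snoRNP and thus a partner of fibrillarin, fell from 72.8 and 71.6 CPM to 59.1 and 58.1 CPM (-0.30, SE 0.0983, DESeq2 adjusted p = 0.0492). Its row holds the intronic snoRNAs Snord110 and Snord57 and ends in an overlap of 5 bp with Idh3b on the other strand. The groups were separate for both genes. With any 1 library left out, and a single library then standing for its genotype, the log2 fold changes stayed at 0.47 to 0.62 for Rrp1b and -0.31 to -0.30 for Nop56, with adjusted p of 0.148 to 0.694 and 0.294 to 0.754. The call of Nop56 lay at the threshold: DESeq2 gave an adjusted p of 0.0502 with TMM factors, 0.0534 with total count factors, 0.0889 with independent filtering off and 0.40 with the replicate block, and edgeR gave 0.116 and limma voom 0.122. That of Rrp1b was lost with independent filtering off (DESeq2 adjusted p = 0.0508), the replicate block (0.256), edgeR (0.116) and limma voom (0.113).

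Rmrp, the Pol III transcribed RNA of RNase MRP, which cuts the rRNA precursor, fell from 17.5 and 15.8 CPM in WT to 5.65 and 11.0 CPM in cKO (log2 fold change -1.003, SE 0.260, DESeq2 adjusted p = 0.00536; edgeR 0.171 and limma voom 0.127). The cKO libraries were far apart, and the log2 fold change was -0.59 without cKO replicate 1 (adjusted p = 0.522) and -1.57 without cKO replicate 2 (1.8e-05). Leaving out a WT library gave -0.93 for WT replicate 1 (0.998) and -1.07 for WT replicate 2 (0.771). Rpph1, the RNA of the related enzyme RNase P, was picked from the list after its values were seen. It was at 614 and 615 CPM in WT and at 267 and 510 CPM in cKO, with cKO replicate 1 the lowest library again, and did not pass the test (-0.66, SE 0.456, DESeq2 adjusted p = 0.570). cKO replicate 1 was also the lowest library for Rn45s and for Snord118, the remaining tested structural RNA row, named after its values were seen. Snord118 was at 4.57 and 3.43 CPM in WT and at 2.21 and 2.46 CPM in cKO. Every tested structural RNA row was thus lowest in the same library.

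**Figure D5:**
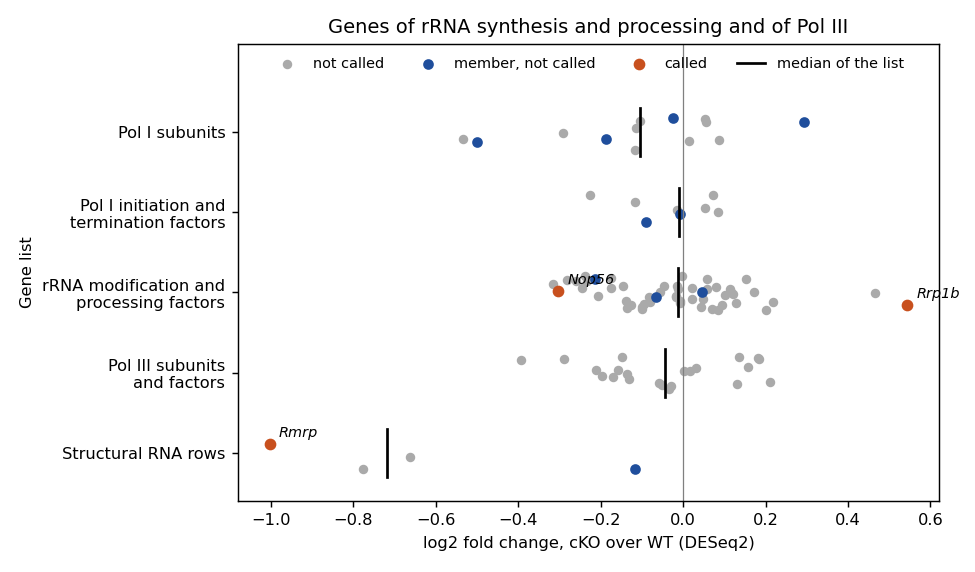
log2 fold change of cKO over WT for each tested gene of the 5 lists. Blue dots are members, orange dots are called genes with their names, and black bars are the medians of the lists. The medians of the 4 protein lists lie between -0.10 and -0.01, and the 4 structural RNA rows all lie below 0.

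Proliferating cell markers were lowest in WT replicate 1. Of 20 markers 3 rose in cKO (Cdc6, Mybl2 and Myc), beside the 2.34% called as higher among all genes tested, and 16 others had values above 0 that did not pass the test. Their median log2 fold change was 0.36, and they had a summed level of 652 and 964 CPM in WT and 1110 and 972 CPM in cKO. Without WT replicate 1 this median was 0.09, and without WT replicate 2 it was 0.78. The 9 protein-coding members did not follow that library: their median difference of log2 CPM between WT replicate 2 and WT replicate 1 was -0.06, beside 0.61 for the 20 markers, and WT replicate 1 was the lowest library for 1 of 9, beside 20 of 20. Rn45s was lower in WT replicate 1 than in WT replicate 2 but lowest in cKO replicate 1, the library with the highest summed level of the markers. Of the 10 DP markers 3 were called, beside 4.06% of all genes tested. Cd8a (log2 fold change -0.54) and Rag1 (-0.31) fell and Lck (0.29) rose, with Rag1 at the threshold (DESeq2 adjusted p = 0.0499). Of the 6 mature single positive markers 3 were called, 2 as higher and 1 as lower, among them Il7r (0.36) and Ccr7 (-0.34). The part of these cells in the members' values was not tested.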

How the data were processed

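The measurements are TTchem-seq of 2 WT and 2 cKO libraries, grouped by sample title. The authors filtered reads with fastp (0.13.1), aligned them with STAR (2.7.9a) to GRCm38 and counted fragments per gene; the submitters' processing notes also name featureCounts (1.6.1). The deposited values are expected counts over whole gene intervals, introns included. Of these 8.61% are not whole, also in 5 of the 10 members, and how fragments were split, whether strand was used in counting and whether duplicates were removed are not given in the sources used here. Yeast spike-in was added by the authors and not used, so a change shared by all genes cannot be seen.

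Counts were rounded and fitted with DESeq2 (1.42.0, R 4.3.3; default size factors, unshrunken fold changes, 95% intervals as 1.96 SE), and called at an adjusted p under 0.05, a change of 1.2-fold or more and a mean level of 1 CPM or more. Of 11625 genes at that level 10624 had an adjusted p. edgeR (4.0.16) quasi-likelihood and limma (3.58.1) voom were alternatives, beside other size factors, filters, a replicate block and leaving out each library. The tools were also run on counts simulated from the DESeq2 fit, which cannot show how well that fit describes these libraries. The outcome is not given here. CPM used the table totals. Pattern likeness used log2(CPM + 0.5). A chi-square test over 11625 genes gave a statistic per degree of freedom of 40.7 for the WT pair and 30.7 for the cKO pair. Neither library of a pair was thus a copy of the other, and pairs across genotypes were not compared.

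Genes named are the 10 members, called genes of the wider lists, rows overlapping these, the 5 genes nearest to Rn45s, and Tox4; others are said in the text to be chosen later or for their rank, or are markers, of which 1 is not reported here by name. The members and lists were chosen with earlier results of these data known. Sequences and the 18S position are RefSeq's; Rn45s, Fbl and Npm1 have no promoter window in the table used here.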

Additional observations from a re-analysis of the deposited data

How the results depend on the processing

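The count of 0 members called held under all 15 alternatives. Under other tests, scalings, filters and blocks, the members' log2 fold changes kept direction and side of the threshold in 110 of 110 results. Without the CPM or the fold change criterion, or with independent filtering off, the log2 fold changes are those of the main fit. Their direction could not change there. Dropping either criterion could not add a call, as the lowest DESeq2 adjusted p of a member was 0.149. With 1 library left out, 7 of 40 changed sign: Rn45s to 0.26 without WT replicate 2 and 0.21 without cKO replicate 1; Rrn3 to 0.0047 without WT replicate 1 and 0.0319 without cKO replicate 1; Ncl to 0.0313 without WT replicate 1 and 0.0613 without cKO replicate 1; and Fbl to -0.0195 without WT replicate 1. Ranges were -0.53 to 0.26 for Rn45s, -0.0428 to 0.0319 for Rrn3, -0.20 to 0.0613 for Ncl and -0.0195 to 0.11 for Fbl. The difference in the share of Rn45s ran from -1.07 to 0.54 percentage points.

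The 431 genes called became 76 with edgeR's quasi-likelihood test, 73 with limma voom, 193 with the replicate block in DESeq2, 96 with the replicate block in edgeR, and 89 to 446 with 1 library left out (184 without WT replicate 1, 126 without cKO replicate 1 and 89 without cKO replicate 2). The 3 listed genes called became 0 with edgeR and limma voom, 1 with independent filtering off, 1 with the replicate block in DESeq2, 0 with it in edgeR, and 0 to 2 with 1 library left out. Libraries of the same number did not deviate together (r = -0.03 over 11625 genes), so the number is not taken as a pairing. For Nop56, Rmrp, Rrp1b and Tox4, an alternative set added after the data were seen, the call was lost in 21 of 44 results and in 15 of 16 with 1 library left out. The cause was not tested. Leaving out a library leaves 1 genotype with a single library, assumed to vary like the other genotype. Of the members, Polr1b had the fewest fragments.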
